A study of Mus musculus with 12 samples.

Results

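The interleukins and interleukin inhibitors examined here were 10 of the 43269 genes in a count table of MC38CEA cells, taken by symbol: *Il6*, *Lif*, *Il15*, *Il18*, *Il33*, *Il34*, *Il16*, *Il1a*, and the inhibitor genes *Il18bp* and *Il1rn*. MC38CEA is a mouse colon adenocarcinoma line that carries the gene of carcinoembryonic antigen. Control cells and cells in which *Adam17* was knocked down by CRISPR/Cas9 editing (*Adam17*-KD) were left unstimulated or received human IL1β together with mouse IFNγ, both recombinant and at 10 ng/ml, for 6 h, and each of the 4 groups had 3 libraries of poly(A)+ RNA. In the study's CRISPR/Cas9 experiments, control cells were edited with a guide RNA against *EGFP*, a sequence that mouse cells lack. The sample titles call the control libraries WT and the edited ones KO, and name no guide. Total counts ran from 13156871 to 25443307 per library. The labels call the libraries of a group biological replicates, without saying whether they came from separate editing experiments, so p-values cover the spread between these libraries.

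Interleukins are secreted proteins by which cells signal to one another, and the genes examined here fall into several families. IL6 and LIF act through receptors that share the signalling chain gp130, the product of *Il6st*. IL1α, IL18 and IL33 belong to the IL1 family, whose members are restrained by natural inhibitors: the IL1 receptor antagonist (*Il1rn*) occupies the IL1 receptor without activating it, and IL18 binding protein (*Il18bp*) captures IL18 outside the cell. IL15 supports natural killer cells and memory T cells and is presented on its own receptor chain, encoded by *Il15ra*. IL34 shares the receptor CSF1R with the macrophage growth factor CSF1, and IL16 attracts CD4+ cells. ADAM17, the product of the edited gene, is a membrane protease that sheds surface proteins, the IL6 receptor among them.

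Levels are given as CPM, each count relative to its library's total after TMM scaling (trimmed mean of M values). Differences were tested with edgeR's quasi-likelihood F-test in 1 model of all 12 libraries, and the Benjamini-Hochberg adjustment covered 14673 genes. A call means an adjusted p under 0.05. *Adam17* itself was lower in the edited cells (log2 fold change -0.75, adjusted p = 0.0136, in unstimulated and -0.81, adjusted p = 0.0327, in stimulated cells, and -0.78, adjusted p = 0.00103, on average). The averaged call held without each of the 12 libraries. The call in unstimulated cells was lost in 5 of the 12 such fits, those without the unstimulated control replicate 2 or 3 or any 1 unstimulated *Adam17*-KD library (adjusted p from 0.00672 to 0.0942 over the 12). That in stimulated cells was lost in 10, all but those without replicate 1 of either control group (adjusted p from 0.0329 to 0.231). Of 11 epithelial markers only 2 had enough counts to be tested, *Epcam* had 4 counts in the 12 libraries together, and *Muc1* and *St14* gave most of a summed level between 0.209 and 4.41 CPM. The defining markers of the labelled cell type were therefore close to absent. The leukocyte marker *Ptprc* had 8 counts in all libraries together and *Cd3e* had 0, while the 11 leukocyte markers in the table, mostly *Cd14*, summed to between 17.2 and 34.8 CPM with overlapping ranges in all groups.

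Of the 10 genes, 8 passed the filter on low counts and *Il1a* and *Il1rn* did not. *Il6* had 1 to 8 counts in each unstimulated library, and *Il18* had 4 to 6 in each unstimulated control library. Both passed only with the help of their stimulated libraries. Their place among the 8 thus rests on the level after stimulation, and the counts of changed genes below are descriptions of these genes. In control cells 7 of the 8 tested genes changed with the cytokines, against 6.81% of all genes tested. *Lif*, *Il6*, *Il15*, *Il18* and *Il18bp* rose and *Il34* and *Il16* fell, while rises were called for 5.75% and falls for 1.06% of all genes. In *Adam17*-KD cells 6 of the 8 changed, against 7.9% of all genes, with the same 5 rises and a fall of *Il16* (background 6.37% for rises and 1.53% for falls). Over the 8 genes the median log2 fold change was 2.41 in control cells and 2.08 after the knockdown, beside medians of -0.03 and 0.00 over all genes.

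The promoters of 3 genes that rose and of 1 that fell are shown, since cytokine responses of this kind are classically carried by NF-κB downstream of IL1β and by factors such as IRF1 downstream of IFNγ. RefSeq (assembly GRCm38.p6) gave 13 windows, each from 250 bases before to 50 bases after a transcription start, for 8 of the 10 genes, and none for *Il15* and *Il34*. Both strands were searched for an NF-κB motif (GGG and TTCC with 3 bases of any kind between them), a GAS motif (TTC and GAA, 3 bases apart) and an ISRE motif bound by IRFs (GAAA and again GAAA, 2 bases apart). These occur in 5.56%, 8.3% and 3.44% of the 32851 windows of all genes, respectively, and any of them in 16.2%. Capitals mark NF-κB matches. The first sequence lies at chr5:30012864-30013163 on the plus strand and the next at chr11:4257318-4257617 on the plus strand. The *Il18bp* window lies at chr7:102018183-102018482 on the minus strand, and that of the third annotated *Il16* start at chr7:83655446-83655745 on the minus strand.
Il6: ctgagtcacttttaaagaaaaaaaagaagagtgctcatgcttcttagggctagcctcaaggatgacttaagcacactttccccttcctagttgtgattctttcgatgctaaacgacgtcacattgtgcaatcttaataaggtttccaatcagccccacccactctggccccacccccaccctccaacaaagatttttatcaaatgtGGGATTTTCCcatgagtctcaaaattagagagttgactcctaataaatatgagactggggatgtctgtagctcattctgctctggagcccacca
Lif: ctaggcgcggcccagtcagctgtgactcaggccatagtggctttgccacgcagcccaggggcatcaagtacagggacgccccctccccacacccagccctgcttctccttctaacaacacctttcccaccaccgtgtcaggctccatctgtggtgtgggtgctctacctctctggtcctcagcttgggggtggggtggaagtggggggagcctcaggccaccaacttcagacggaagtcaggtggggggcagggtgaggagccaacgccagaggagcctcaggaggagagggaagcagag
Il18bp: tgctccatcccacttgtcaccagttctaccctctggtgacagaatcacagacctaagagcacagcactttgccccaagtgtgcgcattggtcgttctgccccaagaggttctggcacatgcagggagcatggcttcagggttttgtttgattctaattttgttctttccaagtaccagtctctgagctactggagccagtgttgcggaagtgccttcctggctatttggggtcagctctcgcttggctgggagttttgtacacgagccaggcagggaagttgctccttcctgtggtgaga
Il16: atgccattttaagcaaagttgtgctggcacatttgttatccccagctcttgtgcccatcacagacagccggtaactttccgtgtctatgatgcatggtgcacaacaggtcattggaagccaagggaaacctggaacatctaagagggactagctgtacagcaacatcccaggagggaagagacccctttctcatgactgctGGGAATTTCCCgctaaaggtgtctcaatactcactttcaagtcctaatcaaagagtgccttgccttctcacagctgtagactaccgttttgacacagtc
In the *Il6* window the match spans bases -44 to -35 from the start. In the *Il16* window, matches on both strands overlap between bases -49 and -39, and the other 2 *Il16* windows held none. The remaining matches lay in the 3 windows of *Il1rn*, of which the second and the third share 1 match. No window of *Lif*, *Il18bp*, *Il18*, *Il33* or *Il1a* held these letters, so 5 of the 13 windows had a match, every one of them NF-κB. A match is a description of the letters only, and the counts do not say from which start a transcript came.

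*Lif* and *Il6* encode the gp130 cytokines of the set. *Lif* (chr11:4257557-4272514, plus strand) was at 31.3, 23.1 and 44.8 CPM in replicates 1, 2 and 3 of unstimulated control cells and at 184, 148 and 200 CPM after stimulation. In *Adam17*-KD cells it was at 24.98, 19.5 and 24.6 CPM and then at 147, 144 and 164 CPM. Every stimulated library stood far above every unstimulated one, and replicate 2 was the lowest of its group in 4 of 4 groups. *Lif* rose by 2.42 ± 0.21 (log2 fold change ± SE, adjusted p = 1.93e-06) in control cells and by 2.72 ± 0.21 (adjusted p = 7.40e-07) in *Adam17*-KD cells.

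*Il6* (chr5:30013114-30019981, plus strand), the classical inflammatory and acute-phase cytokine, was far less abundant, and its unstimulated libraries held only 1 to 8 counts each. Its levels were 0.266, 0.417 and 0.0429 CPM in unstimulated and 2.26, 2.28 and 2.04 CPM in stimulated control cells. In *Adam17*-KD cells they were 0.160, 0.215 and 0.262 CPM without and 2.75, 2.78 and 2.87 CPM with cytokines. The stimulated libraries agreed closely within each genotype, and no unstimulated library came near them. The log2 fold change was 3.18 ± 0.44 in control cells (adjusted p = 0.000223) and 3.66 ± 0.45 in *Adam17*-KD cells (adjusted p = 7.59e-05).

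*Il15* (chr8:82331632-82403222, minus strand) had the highest fold change of the set in control cells. It was at 1.37, 1.04 and 0.730 CPM in unstimulated and at 13.7, 19.9 and 19.5 CPM in stimulated control cells. The *Adam17*-KD libraries gave 1.54, 3.39 and 2.01 CPM and, with cytokines, 19.2, 26.0 and 30.0 CPM. Stimulated and unstimulated libraries were well apart in both genotypes, and the fold change was 16.8 in control cells (log2 4.07 ± 0.32, adjusted p = 8.45e-07) and 10.8 in *Adam17*-KD cells (log2 3.44 ± 0.30, adjusted p = 2.81e-06).

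The cytokine *Il18* and its inhibitor *Il18bp* rose together, at unlike levels. *Il18* (chr9:50554827-50581840, plus strand), whose product is cut by caspase-1 to become active, was at 0.228, 0.209 and 0.172 CPM in unstimulated and at 1.13, 1.21 and 0.970 CPM in stimulated control cells. In *Adam17*-KD cells it was at 0.799, 0.753 and 0.350 CPM without and at 1.78, 1.27 and 2.10 CPM with cytokines. The groups did not overlap in either genotype, although the unstimulated control libraries held only 4 to 6 counts each. *Il18* rose by 2.40 ± 0.42 in control cells (adjusted p = 0.00182) and by 1.44 ± 0.36 in *Adam17*-KD cells (adjusted p = 0.0224). The call in *Adam17*-KD cells was lost when the unstimulated replicate 2 or 3 (adjusted p = 0.0573 and 0.121) or the stimulated replicate 1 or 3 (0.0782 and 0.0859) of these cells was left out.

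*Il18bp* (chr7:102014885-102018690, minus strand) was at 3.04, 2.35 and 1.76 CPM in unstimulated and at 15.5, 16.5 and 12.7 CPM in stimulated control cells. In *Adam17*-KD cells the values were 2.82, 3.01 and 2.32 CPM, and 23.8, 29.6 and 23.7 CPM with cytokines. The stimulated *Adam17*-KD libraries were the highest of all, and the unstimulated libraries of both genotypes overlapped. The rise was 2.63 ± 0.22 in control cells (adjusted p = 1.34e-06) and 3.24 ± 0.22 in *Adam17*-KD cells (adjusted p = 1.96e-07). The last exon of *Numa1*, on the opposite strand, overlaps *Il18bp*, and the treatment of strand in counting is not given in the sources used here, so reads of the shared stretch cannot be told apart. *Numa1* was at 114 to 168 CPM and was called in none of the contrasts.

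*Il33* (chr19:29925114-29960718, plus strand), an IL1-family alarmin kept in the nucleus until cells are damaged, differed widely between replicates. It was at 2.58, 1.30 and 3.05 CPM in unstimulated and at 6.42, 3.56 and 10.4 CPM in stimulated control cells, and at 2.02, 1.45 and 3.32 CPM and then 6.80, 3.02 and 6.60 CPM in *Adam17*-KD cells. Replicate 2 was the lowest in 4 of 4 groups, as for *Lif*, and in control cells the groups did not overlap while in *Adam17*-KD cells they did. The log2 fold changes of 1.56 ± 0.45 in control cells (adjusted p = 0.0563) and 1.26 ± 0.46 in *Adam17*-KD cells (adjusted p = 0.141) did not pass the test. Between control libraries with the same replicate number the ratio of stimulated to unstimulated was 2.49, 2.74 and 3.42. With the replicate number as a block in a fit of all 12 libraries, the change in control cells was 1.52 (adjusted p = 0.000582). Same-numbered libraries deviated together between the control groups. Between the *Adam17*-KD groups, which this fit also blocked, they did not do so throughout (r across genes -0.17, 0.30 and -0.11). Without the block, leaving out 1 library at a time gave adjusted p-values from 0.0103, without the stimulated control replicate 2, to 0.269, without the stimulated control replicate 3. It was also under the threshold without the unstimulated *Adam17*-KD replicate 3 (0.0432) or the stimulated *Adam17*-KD replicate 2 (0.0446).

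*Il34* and *Il16* went the other way. *Il34* (chr8:110741829-110805924, minus strand) was at 20.3, 17.0 and 24.3 CPM in unstimulated and at 14.9, 11.1 and 13.8 CPM in stimulated control cells, and at 24.6, 28.8 and 26.8 CPM and then 22.8, 22.6 and 20.03 CPM in *Adam17*-KD cells. Stimulated libraries were below unstimulated ones in both genotypes, by a smaller margin than for the genes that rose. The fall in control cells was small, -0.63 ± 0.16 (adjusted p = 0.0287), and that in *Adam17*-KD cells, -0.29 ± 0.16 (95% interval -0.64 to 0.05, adjusted p = 0.402), did not pass the test. The control call was lost without the unstimulated control replicate 1 or 3 (adjusted p = 0.0805 and 0.160), the stimulated control replicate 2 or 3 (0.0853 and 0.0710) or the unstimulated *Adam17*-KD replicate 2 (0.0503), and was 0.154 when only the control libraries were fitted.

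*Il16* (chr7:83642825-83745726, minus strand) was scarce, with 1 to 76 counts per library and only 1 to 5 in each stimulated control library. Its levels were 0.759, 1.04 and 1.12 CPM in unstimulated and 0.238, 0.0758 and 0.243 CPM in stimulated control cells. In *Adam17*-KD cells they were 3.04, 4.09 and 2.49 CPM without and 1.03, 1.45 and 0.388 CPM with cytokines. Stimulated libraries lay below unstimulated ones in each genotype, and the stimulated *Adam17*-KD cells were near the level of the unstimulated control. *Il16* fell by 2.27 on the log2 scale (SE 0.53, adjusted p = 0.0159) in control cells, which is 4.83-fold lower, and by 1.71 (SE 0.40, adjusted p = 0.0145) in *Adam17*-KD cells, which is 3.26-fold lower. The first call was lost without the unstimulated control replicate 3 (0.0580) or the stimulated control replicate 2 (0.0505), and the other without the unstimulated *Adam17*-KD replicate 2 (0.0709) or the stimulated *Adam17*-KD replicate 1 (0.0536). *Stard5*, on the opposite strand, overlaps exons of *Il16* and was at 51.4 to 113 CPM. It was called in none of the contrasts, and reads of the shared stretch cannot be told apart without strand.

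The remaining 2 genes were too low to measure. *Il1a* (chr2:129299610-129309972, minus strand), whose product acts on the same receptor as IL1β, had 0 counts in the 6 unstimulated libraries. It had 0, 1 and 4 counts in stimulated control and 1, 0 and 0 counts in stimulated *Adam17*-KD libraries. A total of 0 counts over a group allows up to 3 counts, which corresponds to 0.0436 CPM in unstimulated control and 0.0498 CPM in unstimulated *Adam17*-KD cells and covers counting error only. *Il1rn* (chr2:24336853-24351494, plus strand) had 2 to 12 counts per library, with group means of 0.252 ± 0.142 (SD, n = 3) and 0.580 ± 0.104 CPM in unstimulated and stimulated control cells and of 0.294 ± 0.141 and 0.404 ± 0.120 CPM in the corresponding *Adam17*-KD cells. The control groups did not overlap, and the *Adam17*-KD groups did. With no filter on low counts the change of *Il1rn* in control cells was 1.14 ± 0.64 (adjusted p = 0.646). A difference in either gene was not detectable at this depth.

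Set against the length of their exons (RPKM, the CPM divided by kilobases of the union of exons in GENCODE M21), the genes changed their order with stimulation. In unstimulated control cells *Il34* (10.5 RPKM) and *Lif* (7.60 RPKM) led with overlapping ranges, and *Il33*, *Il18bp* and *Il15* followed between 0.463 and 0.800 RPKM, each overlapping its neighbour. *Il18*, *Il16*, *Il6* and *Il1rn* lay between 0.0455 and 0.197 RPKM. The range of *Il18* was apart from that of *Il16*, while *Il16*, *Il6* and *Il1rn* each overlapped the next. In stimulated control cells *Lif* led alone at 40.8 RPKM, followed by *Il15* at 7.85 and *Il34* at 6.76 RPKM with overlapping ranges, *Il18bp* at 4.92 RPKM and *Il33* at 2.36 RPKM. *Il16* was at 0.0236 RPKM there, in a range that overlapped that of *Il1a*. The mean level per length of the inhibitor gene *Il18bp* was above that of *Il18* in each of the 4 groups. In control cells it was 0.787 against 0.197 RPKM without and 4.92 against 1.07 RPKM with cytokines, in stimulated *Adam17*-KD cells 8.49 against 1.66 RPKM, and in unstimulated *Adam17*-KD cells 0.898 against 0.615 RPKM with overlapping ranges.

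**Figure D1:**
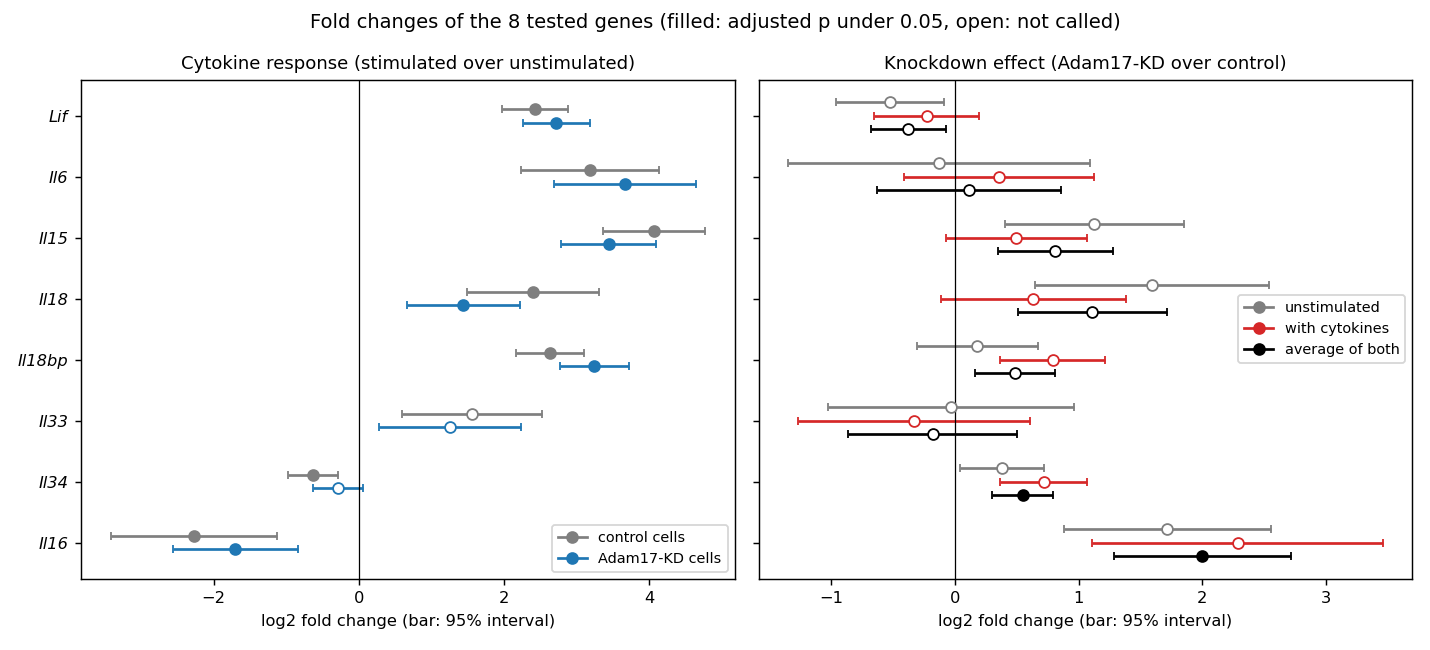
Log2 fold changes of the 8 tested genes with 95% intervals, for the cytokine response (left) and the knockdown effect (right). Filled symbols passed an adjusted p of 0.05. On the left, the 5 genes called higher and Il33, which was not called, lie to the right of 0 in both genotypes. Il16 and Il34 lie to the left of 0, and Il34 is filled in control cells only. On the right only the averages of Il34 and Il16 are filled.

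The knockdown itself was tested without cytokines, with cytokines, and as the average of both. These comparisons share libraries with the cytokine responses above, so they are not independent of them. In unstimulated cells 0 of the 8 genes were called, against 0.47% of all genes, and with cytokines 0 of 8, against 0.0341%. At an unadjusted p under 0.05 there were 1109 and 676 of the 14673 tested genes, respectively. With no effect in any gene, a share of about 0.05 would reach this. DESeq2 called 2 and 3 of the 8. For the average of both conditions 2 of 8, *Il16* and *Il34*, were called higher, against 1.06% of all genes called higher and 1.24% called either way. The median log2 knockdown effect over the 8 genes was 0.28 without and 0.57 with cytokines, beside -0.01 and 0.01 over all genes.

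*Il16* was higher in *Adam17*-KD cells by 2.00 ± 0.33 on average (4.003-fold, adjusted p = 0.00951), and this call held with each of the 12 libraries left out in turn (adjusted p from 0.00498 to 0.0396). Taken singly, the effect was 1.72 ± 0.39 in unstimulated cells (adjusted p = 0.0827) and 2.29 ± 0.54 in stimulated cells (adjusted p = 0.244). Neither passed the edgeR test, although every *Adam17*-KD library lay above every control library of its condition. DESeq2 called both (adjusted p = 0.00407 and 0.0452). With cytokines *Il16* had only 1 to 5 counts per library in control and 5 to 24 in *Adam17*-KD cells, which limits the stimulated and the averaged effect. *Il34* was higher by 0.55 ± 0.11 on average (1.46-fold, adjusted p = 0.0323), from 0.38 ± 0.16 in unstimulated (adjusted p = 0.589) and 0.72 ± 0.16 in stimulated cells (adjusted p = 0.203). Its averaged call was lost without any 1 of 8 libraries: the unstimulated control replicate 1 (0.0910) or 2 (0.0792), the stimulated control replicate 3 (0.0658), the unstimulated *Adam17*-KD replicate 1 (0.0571), 2 (0.116) or 3 (0.0596), and the stimulated *Adam17*-KD replicate 1 (0.0823) or 2 (0.0953).

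Fibroblast markers are given beside this. All 8 markers were in the table, and together, with *Col3a1* the most abundant, they summed to 409 to 604 CPM in unstimulated and 261 to 658 CPM in stimulated control cells, and to 842 to 1152 CPM and 745 to 974 CPM in the corresponding *Adam17*-KD cells. The summed ranges did not overlap between genotypes. Of the 6 tested, only *Col1a2* (0.76 ± 0.10, adjusted p = 0.00341) and *Pdgfra* (0.64 ± 0.13, adjusted p = 0.0372) were called higher for the average of both conditions and 0 were called lower. Over all genes, 1.06% were called higher for this average and 1.24% either way. *Col3a1* itself was not called (0.90 ± 0.25, adjusted p = 0.126), and *Col1a1* had the opposite sign (-0.34 ± 0.31, adjusted p = 0.790). With cytokines 2 of the 6 were called lower in control cells, against 1.06% of all genes. In *Adam17*-KD cells 3 were called lower and 1 higher, against 1.53% and 6.37%. *Col1a2*, a collagen chain, was also among the 3 genes whose log2 CPM followed *Il16* most closely over the 12 libraries, with r = 0.966, after *Tns1* (0.976) and *Emilin1* (0.973). The part of cell composition or state in the differences of *Il16* and *Il34* was not tested, and in these bulk samples a change in the number of cells that express a gene and a change in RNA per cell cannot be told apart.

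Within each single condition, where 0 of the 8 tested genes were called, the genotypes were still apart in some genes. Without cytokines, 4 of the 10 genes (*Il16*, *Il34*, *Il18* and *Il15*) had each *Adam17*-KD value above all control values, and 0 had the reverse, against 8.38% and 7.53% of all tested genes. With cytokines, 5 of the 10 (*Il16*, *Il34*, *Il6*, *Il18* and *Il18bp*) were so, and 0 in the other direction, against 4.83% and 3.23%. *Il18* differed by 1.59 ± 0.44 (adjusted p = 0.211) and *Il15* by 1.13 ± 0.34 (adjusted p = 0.272) in unstimulated cells, and *Il18bp* by 0.79 ± 0.20 (adjusted p = 0.308) in stimulated cells. The averaged effect of *Il18* was 1.11 ± 0.28 (adjusted p = 0.0863, and 0.0440 without the unstimulated *Adam17*-KD replicate 3).

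*Lif* had the opposite sign in both conditions, -0.52 ± 0.20 (adjusted p = 0.525) and -0.23 ± 0.20 (adjusted p close to 1), with overlapping groups. Between same-numbered libraries the ratio of *Adam17*-KD to control was 0.799, 0.843 and 0.549 without cytokines, where the numbers were taken as pairs. With cytokines the ratio was 0.799, 0.971 and 0.819. With the replicate block the effect without cytokines was -0.49 (adjusted p = 0.186). For *Il33* the averaged difference was -0.18 with a 95% interval from -0.86 to 0.50, and for *Il6* it was 0.11 with an interval from -0.63 to 0.86. Both intervals span 0, so with 3 libraries per group neither the presence nor the direction of a difference was settled.

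Whether the knockdown changed the cytokine response itself was tested as the difference between the responses. For this test 0 of the 8 genes and 0% of all genes were called in edgeR. Of the 14673 tested genes, 222 had an unadjusted p under 0.05, which is fewer than the share of about 0.05 that would reach this with no effect. The absence of calls therefore does not show that the responses were equal. DESeq2 called 5 genes, of which 0 were among the 8. The response of *Il18bp* was greater in *Adam17*-KD cells by 0.61 (95% interval -0.04 to 1.26, unadjusted p = 0.0635) and that of *Il18* was smaller by a log2 difference of -0.96 (-2.16 to 0.24, unadjusted p = 0.108). For *Il15* the difference was -0.63 (-1.55 to 0.29), for *Il16* 0.57 (-0.86 to 1.99) and for *Lif* 0.30 (-0.31 to 0.90).

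Most of the receptors through which these cytokines act were not called. Of 18 receptor and decoy genes 12 were tested, and 3 rose with cytokines in control cells, against 5.75% of all genes, and 4 in *Adam17*-KD cells, against 6.37%, while 0 fell in either. *Il15ra*, the chain that presents IL15, went from 7.94 ± 2.05 to 79.5 ± 15.7 CPM in control cells (log2 fold change 3.32 ± 0.21, adjusted p = 8.04e-08) and from 8.43 ± 0.50 to 86.9 ± 14.2 CPM in *Adam17*-KD cells (3.36 ± 0.21, adjusted p = 8.91e-08). *Il15* and *Il15ra* thus rose together, and both by about an order of magnitude.

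The receptor chain of IL33, *Il1rl1*, was among the more abundant transcripts of the list and rose from 120 ± 10.0 to 454 ± 65.0 CPM in control cells (1.92 ± 0.15, adjusted p = 5.59e-07) and by 1.95 ± 0.15 in *Adam17*-KD cells (adjusted p = 5.16e-07). Of the IL18 receptor, the accessory chain gene *Il18rap* rose (1.48 ± 0.15 and 1.33 ± 0.15, adjusted p = 7.89e-06 and 2.22e-05), to 73.3 and 81.2 CPM. The ligand-binding chain gene *Il18r1* had 0, 1, 1 and 5 counts in the whole of the unstimulated control, stimulated control, unstimulated *Adam17*-KD and stimulated *Adam17*-KD groups. In the same order *Csf1r*, the receptor gene of IL34, had 3, 1, 0 and 3 counts.

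The gp130 gene *Il6st* was at 85.5 ± 19.6 and 105 ± 15.5 CPM in control cells, and *Lifr* rose in *Adam17*-KD cells (2.08 ± 0.48, adjusted p = 0.0124), from 0.480 ± 0.319 to 2.04 ± 0.363 CPM. That call was lost without the unstimulated *Adam17*-KD replicate 2 (0.0571) or 3 (0.0526) or the stimulated *Adam17*-KD replicate 1 (0.0540), and the change in control cells was 0.91 ± 0.46 (adjusted p = 0.385). *Il6ra*, which encodes the IL6 receptor that ADAM17 can shed, was the 1 receptor gene of 12 called for the average knockdown effect, against 1.24% of all genes, at 7.80 ± 1.30 and 5.12 ± 1.45 CPM in control against 13.8 ± 3.01 and 9.30 ± 1.47 CPM in *Adam17*-KD cells. The averaged difference was 0.85 ± 0.17 (adjusted p = 0.0263), with values from 0.77 to 0.97 and adjusted p-values from 0.00684 to 0.101 when libraries were left out singly. It was above 0.05 in 8 of the 12 fits, those without the unstimulated control replicate 1 or 3, the stimulated control replicate 1 or 3, and replicate 1 or 2 of either *Adam17*-KD group. With cytokines *Il6ra* changed by -0.62 ± 0.24 in control cells (adjusted p = 0.217, and 0.0466 with the replicate block). The gene of the IL1 receptor, *Il1r1*, through which the added IL1β acts, was at 8.95 to 12.03 CPM in the group means and was called in none of the contrasts. *Cd9*, whose product has been reported to bind IL16, was at 65.8 to 69.9 CPM in the group means.

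**Figure D2:**
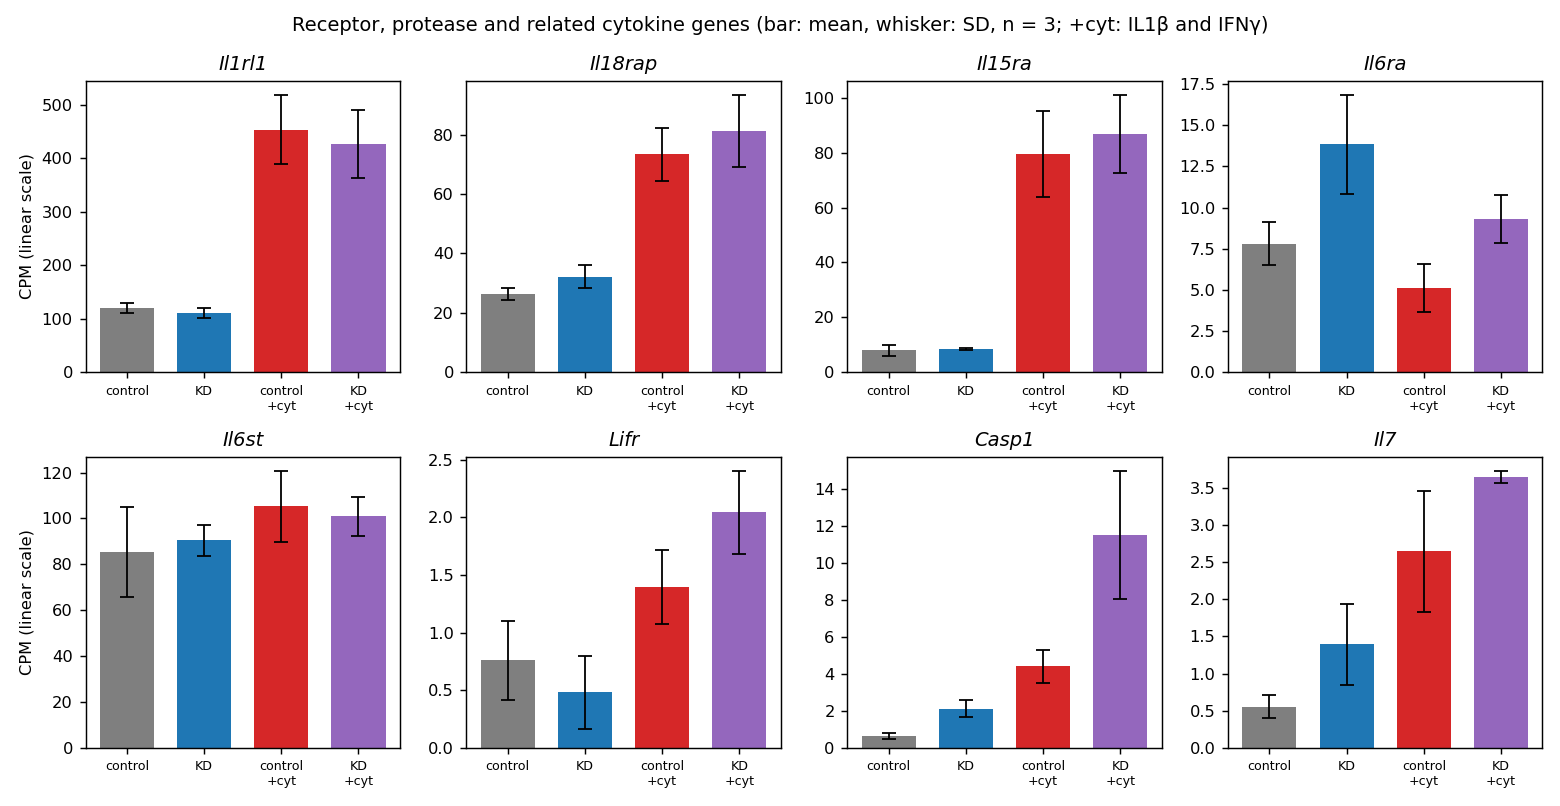
Mean level in CPM (linear scale, a separate scale in each panel; whiskers are SD, n = 3) of 6 receptor genes, the caspase-1 gene and Il7 in the 4 groups (KD, Adam17-KD; +cyt, with IL1β and IFNγ). Il15ra, Il1rl1, Il18rap, Casp1 and Il7 stand higher with cytokines in both genotypes. In Il6ra, Casp1 and Il7 every Adam17-KD library is above every control library of the same condition. Of these differences within a condition, only that of Casp1 without cytokines was called.

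Some genes for the processing, release and shedding of these cytokines and their receptors rose as well. Of 20 listed, 17 were tested. The number called higher was 7 in control cells, against 5.75% of all genes, and 8 in *Adam17*-KD cells, against 6.37%. In the latter 1 was called lower, against 1.53%. Those called higher included *Casp1* (2.78 ± 0.33 and 2.44 ± 0.29, adjusted p = 4.42e-05 and 5.20e-05), *Casp4* (2.79 ± 0.27 and 2.72 ± 0.27), and the pore-forming *Gsdmd* (1.26 ± 0.13 and 1.34 ± 0.13). *Casp1* encodes the protease that activates IL18, and it was higher in *Adam17*-KD cells, at 2.11 ± 0.466 against 0.628 ± 0.149 CPM in unstimulated (1.72 ± 0.33, adjusted p = 0.0365) and at 11.5 ± 3.48 against 4.41 ± 0.895 CPM in stimulated cells (1.39 ± 0.28, adjusted p = 0.135). The average of both effects was 1.56 ± 0.22 (adjusted p = 0.00361). That call held without each of the 12 libraries, and the call without cytokines was lost in 9 of the 12 such fits, the exceptions being those without the stimulated control replicate 2 and the stimulated *Adam17*-KD replicate 1 or 3 (adjusted p from 0.0226 to 0.216 over the 12).

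Few other interleukins were measurable. Of 42 genes of further interleukins, gp130 ligands and *Csf1*, 38 were in the table and 7 had enough counts, of which *Il7* and *Csf1* rose in both genotypes (5.75% and 6.37% of all genes did) and 0 fell. *Il7*, a lymphocyte survival factor, rose by 2.26 ± 0.37 in control cells (adjusted p = 0.000975) and by 1.39 ± 0.34 in *Adam17*-KD cells (adjusted p = 0.0180). The latter call was lost without the unstimulated *Adam17*-KD replicate 1 (0.0896) or 3 (0.09995) or the stimulated *Adam17*-KD replicate 1 (0.0541). *Csf1*, which encodes the other ligand of the IL34 receptor, rose from 234 ± 33.2 to 651 ± 105 CPM in control cells (1.48 ± 0.17, adjusted p = 3.03e-05) and by 1.35 ± 0.17 in *Adam17*-KD cells (adjusted p = 7.17e-05), while *Il34* moved down. *Il1b*, the mouse gene of IL1β (the added protein was human), had at most 1 count in any group.

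Of 22 transcription factors and regulators downstream of both stimuli, 20 were tested. Called higher were 14 in control cells, against 5.75% of all genes, and 16 in *Adam17*-KD cells, against 6.37%, with 0 called lower. *Irf1*, an early target of IFNγ, rose by 5.04 ± 0.18 and 4.34 ± 0.18 (adjusted p = 2.89e-10 and 1.12e-09). *Nfkbia*, the NF-κB inhibitor that NF-κB itself induces, rose by 1.99 ± 0.11 and 1.84 ± 0.11 (adjusted p = 2.77e-08 and 7.14e-08).

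The genes whose levels ran most nearly in parallel over the 12 libraries were found by Pearson's r of log2 CPM among 13044 genes. The values are descriptions, since all libraries share the same 4 groups. *Il15* was nearest to *Mndal* (0.996), *Trim34a* (0.995) and *Gbp6* (0.992), and *Il18* to *Pdzd2* (0.966), *Mx1* (0.966) and *Gorab* (0.964). *Il18bp* was nearest to *Eif4e3* (0.991), *Inpp1* (0.990) and the complement gene *C4b* (0.988). *Lif* was nearest to *Rab3ip* (0.989), *Enc1* (0.988) and *Upp1* (0.987), and *Il6* to *Irf2* (0.979), *Fhod3* (0.978) and *Tor1aip1* (0.9754). *Il33* had its highest values with *Ada* (0.949), *Prl2c3* (0.948) and *Vrk2* (0.946), and *Il34* with RP24-484G16.12 (0.976), *Thra* (0.948) and *Rapgef3* (0.942). Among the 8 genes themselves, r was 0.972 between *Il15* and *Il18bp*, 0.919 between *Il16* and *Il34*, and -0.759 between *Il16* and *Lif*.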

How the data were processed

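The deposited table holds raw counts per gene and library, whole numbers that the authors did not normalise. Per the labels, libraries came from poly(A)+ RNA with the Ion Total RNA-Seq Kit and the build was mm10. The aligner, counter, annotation, strand and handling of reads with several positions are not given in the sources used here. Tables of the authors' own comparisons (means, fold changes, standard errors, test statistics and p-values) were not used. Left out were 2 lines whose gene name reads as a calendar date (0.00808% of counts).

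The analysis used edgeR 4.0.16 under R 4.3.3. There, filterByExpr (minimum count 10) left 14673 genes, scaled by TMM, and 1 mean for each group was estimated in a quasi-likelihood fit of the 12 libraries (8 residual degrees of freedom). The script was tested on simulated data. Alternatives were a replicate block over all 12 libraries, DESeq2 1.42.0, RLE scaling, no filter, only the groups compared, and leaving out each library. Replicate numbers in the labels were taken as pairs where same-numbered libraries deviated together from their group means across genes: r was 0.13, 0.44 and 0.49 between the control groups and 0.22, 0.28 and 0.46 between the unstimulated groups, and at least 1 of the 3 was under 0.1 in the other comparisons. Over all groups, r was over 0.1 in 12 of 18 same-numbered pairs of libraries and in 8 of 36 other pairs, with a highest value of 0.398 in the latter. Unstimulated control replicate 3 and stimulated control replicate 1 had r = 0.27. Every one of the 10 genes is reported. Of each list, up to 6 genes with the smallest adjusted p and fixed receptor genes could be named, and the 3 most similar genes had a mean of at least 20 counts. Correlations used a prior count of 2. Some genes that met this rule are not reported here. Genes and lists were chosen with earlier results of these data known. Positions are from GENCODE M21 (GRCm38, equal to mm10), and promoter sequences from RefSeq.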

Additional observations from a re-analysis of the deposited data

How the results depend on the processing

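The number of the 8 genes called for the knockdown without cytokines, 0, became 2 with DESeq2 and 2 with no filter on low counts, with cytokines the 0 became 3 and 1, and for the average of both conditions the count of 2 became 4 and 4. Over all genes the knockdown calls of 69, 5 and 182 became 230, 74 and 443 with DESeq2 and 223, 98 and 406 with no filter, and the 5 became 3 when only the groups compared were fitted. With single libraries left out they ran from 10 to 126, from 0 to 6 and from 69 to 234, and the responses in control and *Adam17*-KD cells from 806 to 1077 and from 853 to 1332. The lowest count without cytokines, 10, came without the unstimulated *Adam17*-KD replicate 2, and it was 33 without replicate 1 of that group and 20, 14 and 17 without the unstimulated control replicates 1, 2 and 3, while the highest, 126, came without the stimulated control replicate 2. The difference between the responses had 5 called genes with DESeq2 and 18 with no filter, against 0. Leaving out 1 library at a time gave 5 to 8 called genes for the response in control cells, 4 to 6 for that in *Adam17*-KD cells, 0 to 1 for the knockdown without cytokines (1 without the stimulated control replicate 2 or the stimulated *Adam17*-KD replicate 3) and 1 to 2 for the average. The causes were not tested. The added calls were those of *Il16* (adjusted p = 0.00316 and 0.0148 with no filter), *Il15* without cytokines (0.0441 with DESeq2, 0.0127 with no filter) and on average (0.00886 and 0.00125), *Il34* (0.0104) and *Il18bp* (0.0188) with cytokines in DESeq2, *Il18* on average in DESeq2 (0.0464), and a lower *Lif* on average with no filter (0.0447). With no filter the call of *Il18* in *Adam17*-KD cells was lost (0.0508), as it was when only the groups compared were fitted (0.0725).

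*Il33* in control cells was called with DESeq2 (0.00716) and with no filter (1.14e-05), and in *Adam17*-KD cells with no filter (0.00162). The knockdown effect of *Il33* without cytokines, -0.03, became 0.00054 with DESeq2 and 0.0011 with RLE scaling. Leaving out single libraries turned the sign of uncalled values of *Il6* and *Il33*: without cytokines they ran from -0.62 to 0.42 and from -0.40 to 0.23, on average from -0.13 to 0.39 and from -0.37 to 0.047, and for the difference between the responses from -0.062 to 0.98 and from -0.60 to 0.15. With cytokines the effect on *Il33* ran from -0.63 to 0.12, and the averaged effect on *Lifr* from -0.31 to 0.15, on *Il6st* from -0.041 to 0.11 and on *Cd9* from -0.057 to 0.087. In control cells the response of *Il1r1* ran from -0.12 to 0.27 and that of *Cd9* from -0.11 to 0.17.

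With the replicate block, the genes called out of the 8 numbered 8, 7, 0, 0, 2 and 0 for the responses in control and *Adam17*-KD cells, the knockdown without and with cytokines, its average and the difference, and 1215, 1447, 130, 11, 302 and 0 genes were called in all, against 999, 1159, 69, 5, 182 and 0 without it. The block added *Il33* in both genotypes (0.00253 in *Adam17*-KD cells, where the numbers did not pair the libraries) and changed no other call of the 8 genes. Over the 8 genes and 6 contrasts, 192 values under the other settings and 537 with a library left out kept their direction and side of the threshold, called or not. Under the other settings 17 values gained a call, 3 lost one and 2 changed sign. With a library left out, 6 gained a call, 21 lost one and 12 changed sign. The fall of *Adam17* with cytokines had an adjusted p of 0.0510 with RLE scaling and 0.216 when only the groups compared were fitted. Depth limits *Il1a*, *Il1rn*, the unstimulated levels of *Il6* and *Il18*, and the level of *Il16* in stimulated control cells.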
